A study of Mus musculus with 10 samples.

Results

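Dentate granule neuron nuclei were examined in single-nucleus RNA sequencing data from the hippocampus of wild-type mice. They were 2081 of the 15560 barcodes with at least 500 UMIs, or 13.4% (exact binomial 95% interval 12.8 to 13.9%), out of 15661 barcodes in all. A UMI is a unique molecular identifier, the tag by which reads of the same transcript molecule are counted once. A nucleus was counted as a granule nucleus when it held at least 4 UMIs from at least 3 of the 6 genes Prox1, Glis3, Plk5, Trpc6, Stxbp6 and Dsp. These UMIs also had to make up at least 0.06% of its total. At most 1 UMI was allowed from the inhibitory genes Gad1, Gad2 and Slc32a1 together, and at most 1 from the astrocyte genes Gja1, Aqp4 and Slc1a3 together.

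All 10 samples were labelled as 1 group: unstimulated C57B/6J wild-type animals, 4 to 7 months old, with no transgene, deletion or treatment named, although 4 of the sample titles carry the word RNASET2 together with control. Nuclei came from frozen hippocampus, were sorted by their DNA stain 7AAD, and were counted by droplet sequencing of transcript 3′ ends. The deposited matrix pools all nuclei under 7 barcode suffixes, here sets 1 to 7, and the labels do not say which sample a set came from. The data were therefore treated as 1 sample, no p-value was computed, and intervals cover counting error only.

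Granule neurons are the principal excitatory cells of the dentate gyrus. They receive input from the entorhinal cortex and send mossy fibres to CA3 pyramidal neurons, and they are among the few neurons that are still born in the adult rodent brain. The transcription factor Prox1 is needed for their identity, the calcium buffer calbindin marks the mature cells, and the delta subunit of the GABA-A receptor carries much of their tonic inhibition. They are known for sparse firing, and genes such as Lct on the dorsal side and Trhr on the ventral side are known to divide them along the long axis of the hippocampus.

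The promoters of Prox1, the gene that defines the cell type, of Plk5, a polo-like kinase relative found in neurons, and of C1ql2, a secreted ligand that mossy fibres carry, are shown because these genes recur in the results below. Each sequence covers 250 bases before to 50 bases after a RefSeq gene start on GRCm38.p6, 5′ to 3′ on the strand of the gene. Capitals mark the letters CAGATG or CATCTG, the E-box form that NeuroD-type factors prefer, searched on both strands.
Prox1, chr1:190170778-190171077, minus strand: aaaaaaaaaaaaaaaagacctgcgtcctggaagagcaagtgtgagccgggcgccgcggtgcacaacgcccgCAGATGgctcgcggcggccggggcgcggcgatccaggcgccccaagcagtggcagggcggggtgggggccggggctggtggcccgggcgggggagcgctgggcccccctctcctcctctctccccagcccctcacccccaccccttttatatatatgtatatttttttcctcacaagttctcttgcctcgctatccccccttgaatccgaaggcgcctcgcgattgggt
Plk5, chr10:80356209-80356508, plus strand: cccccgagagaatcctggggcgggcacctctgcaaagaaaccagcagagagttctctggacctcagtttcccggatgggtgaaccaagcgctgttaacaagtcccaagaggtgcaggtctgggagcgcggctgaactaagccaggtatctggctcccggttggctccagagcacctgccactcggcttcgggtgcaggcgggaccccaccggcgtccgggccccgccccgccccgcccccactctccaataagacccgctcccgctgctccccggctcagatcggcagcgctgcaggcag
C1ql2, chr1:120340332-120340631, plus strand: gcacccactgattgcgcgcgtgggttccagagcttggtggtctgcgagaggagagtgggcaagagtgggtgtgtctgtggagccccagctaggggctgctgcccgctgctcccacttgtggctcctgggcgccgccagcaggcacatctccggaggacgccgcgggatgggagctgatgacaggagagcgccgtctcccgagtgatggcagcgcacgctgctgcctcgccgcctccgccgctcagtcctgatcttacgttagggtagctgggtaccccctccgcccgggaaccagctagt
The motif stood once in this Prox1 promoter, starting at position 72, and not in the other sequences shown. Of the 7 promoters listed for the 6 rule markers, 1 held it (14.3%), against 17.2% of all 32851 promoters of the same length. It stood in 6 of 33 promoters (18.2%) of the 20 matched members among 22 mature granule neuron genes described below. The shorter E-box CANNTG, which includes the motif, was in 20 of these 33 promoters (60.6%) and in 72.3% of all promoters. A match describes letters in this window and says nothing of a factor that might bind there.

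Before the results, the barcode sets need description, since they differed. Sets 1 to 7 held 548, 460, 457, 338, 54, 223 and 1 granule nuclei, which were 18.1, 16.3, 19.5, 16.2, 2.43, 9.35 and 0.150% of their barcodes. Granule nuclei had a median of 6636 UMIs (593 to 48634) and 2676 genes, and the set medians ran from 2046 UMIs in set 6 to 8301.5 in set 4. Set 1 stood apart: against sets 2 to 4, its granule nuclei had at least 2-fold higher levels of 858 of 9563 genes (8.97%) and at least 2-fold lower levels of 568 (5.94%). The higher genes included 61 of 69 ribosomal protein genes. Of all UMIs, ribosomal protein genes took 0.373% in granule nuclei of set 1 and between 0.0867 and 0.183% in sets 2 to 6. CA1-like nuclei of set 1 shared much of this: among 7408 genes measured in both classes, 322 were higher in both, which is 71.9% of the calls in granule nuclei and 67.8% of those in CA1-like nuclei. All told, 6.46% of the CA1-like comparison's 7518 genes were at least 2-fold higher and 6.05% lower in set 1, and both classes were drawn from the same barcode sets. The shallower sets 5 and 6 differed from sets 2 to 4 in 743 higher (8.43%) and 408 lower (4.63%) of 8814 genes in granule nuclei, and in 485 (6.62%) and 241 (3.29%) of 7326 in CA1-like nuclei. Ratios were also computed leaving out each set in turn. Where this moved a ratio given below by over 1.5 times or across 2-fold, the value without that set stands beside it. Of 2081 granule nuclei, 10 had a barcode sequence that also occurred in another set.

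Reference classes were defined by the same kind of rule. CA1-like nuclei (1017, median 8178 UMIs) met it with 7 CA1 markers, among them Fibcd1, Mpped1, Wfs1, Pou3f1, Man1a and Spink8. CA2/CA3-like nuclei (250, median 6085.5 UMIs) met it with Cpne4, Nectin3, Iyd, Bok, Cdh24, Prss35, Coch and Homer3. Levels are UMIs summed over the nuclei of a class per 1000000 UMIs of that class (CPM). They are not corrected for transcript length, so they are compared between classes and never between genes. All genes of these nuclei count as used by the choice of members, and every difference below is a description.

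The label was checked against markers. Slc17a7, the vesicular glutamate transporter of forebrain excitatory neurons, had 221 CPM in granule nuclei, against 264 CPM in CA1-like, 333.5 CPM in CA2/CA3-like and 27.8 CPM in oligodendrocyte-like nuclei. Summed CA1 markers had 68.6 CPM in granule nuclei (37.3 to 185 over sets), against 1566 CPM in CA1-like nuclei. Summed CA2/CA3 markers had 383 CPM against 1797 CPM in CA2/CA3-like nuclei, of which Cpne4 alone gave 332 CPM and 1058 CPM. Markers of mossy cells, the other excitatory neurons of the dentate gyrus, summed to 12.9 CPM in granule nuclei, 4.66 CPM in CA1-like and 17.4 CPM in CA2/CA3-like nuclei. The 6 cortical or subicular markers summed to 289.5 CPM in granule nuclei (230 to 889.5 over sets), against 44.9 CPM in CA1-like and 49.15 CPM in CA2/CA3-like nuclei, whose rules, unlike that of granule nuclei, allowed at most 1 of these UMIs. Of these, Tle4 alone gave 188, 24.9 and 38.1 CPM in granule, CA1-like and CA2/CA3-like nuclei. Some members carried markers of another type. Over 1 UMI of the oligodendrocyte genes Mog, Mag, Mobp, Cldn11 and Ermn was found in 164 members, of cortical or subicular genes in 123 and of microglial genes in 32, and 46 also met the CA1 or CA2/CA3 marker rule. Together these were 292 nuclei. The 7 oligodendrocyte markers, Mbp among them, summed to 509 CPM in all members (146 to 1594 over sets), 154 CPM in the 1789 members without such markers and 14510 CPM in oligodendrocyte-like nuclei. The cortical or subicular sum was 209 CPM in the same 1789 members. Where results moved by over 1.5 times without the 292 nuclei, both values are given, and the part these nuclei play was not tested further.

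The 6 rule markers chose the nuclei, and their values are given as a description. Prox1 had 332, 313, 280.0, 274.5, 315 and 433 CPM in granule nuclei of sets 1 to 6, against at most 4.79 CPM in CA1-like and at most 2.504 CPM in CA2/CA3-like nuclei of any set. Glis3, a Kruppel-like zinc finger factor, had 685 to 931 CPM over the 6 sets, against 0.689 to 4.55 CPM in CA1-like nuclei. These ranges did not meet, which the rule itself brings about. Plk5 had 51.5, 95.8, 112.5, 91.8, 110 and 216 CPM in granule nuclei of sets 1 to 6, against 0.689 to 9.57 CPM in CA1-like nuclei. It was the marker that varied most between sets, lowest in set 1 and highest in set 6. Trpc6, a diacylglycerol-gated cation channel, had the smallest ratio over CA1-like nuclei, with 485 CPM in granule nuclei against 45.1 CPM. Stxbp6, a syntaxin-binding protein also called amisyn, had 978 CPM in granule and 8.20 CPM in CA1-like nuclei. Dsp, which encodes the desmosomal linker desmoplakin, had 57.0 CPM in granule and 0.554 CPM in CA1-like nuclei, and no UMI in CA2/CA3-like nuclei, which makes it at least 44.9-fold higher against a floor of 3 UMIs. Oligodendrocyte-like nuclei (2829, median 1756 UMIs) also held Prox1 (227 CPM) and Stxbp6 (613 CPM), but 16.3 CPM of Glis3 and 1.46 CPM of Dsp.

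**Figure D1:**
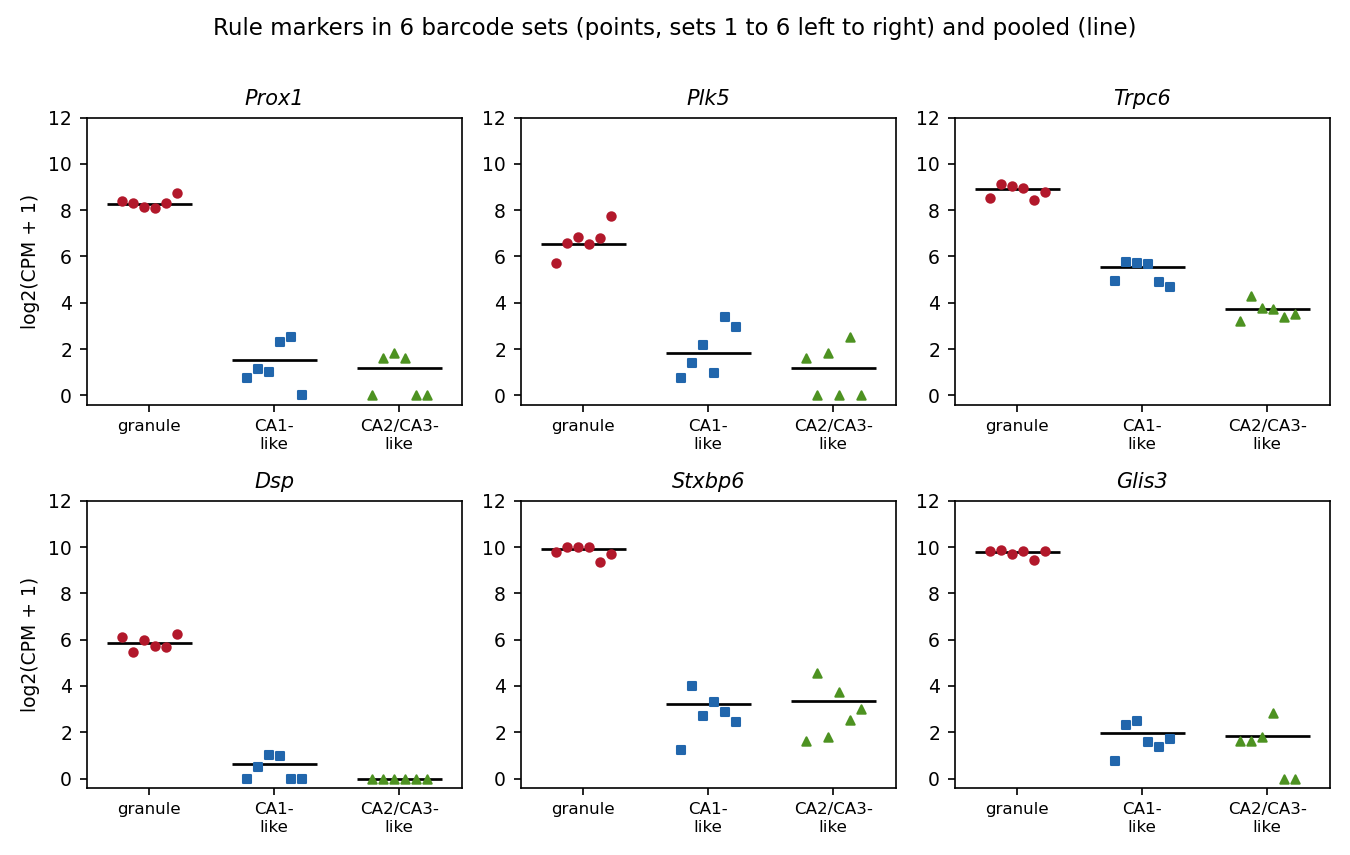
Levels of the 6 genes that defined granule nuclei, as log2(CPM + 1) on the vertical axis, in granule, CA1-like and CA2/CA3-like nuclei; points are barcode sets 1 to 6 from left to right and lines are the pooled level. Plk5 spreads most among granule nuclei, from 51.5 CPM in set 1 to 216 CPM in set 6, and Trpc6 lies at 485 CPM in granule and 45.1 CPM in CA1-like nuclei.

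Most members were well inside the rule. The numbers with 3, 4, 5 and 6 of the marker genes were 462, 781, 683 and 155, and the median member held 18 marker UMIs. At the edge, 45 members had exactly 4 marker UMIs, and 17 lay under 0.08% of their UMIs. Just outside were 33 barcodes with 3 UMIs from 3 of the genes and 446 with at least 4 UMIs from only 2 genes. A further 198 barcodes met the marker part and were left out for inhibitory UMIs, and 257 for astrocyte UMIs.

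Across the transcriptome, granule nuclei were at least 2-fold higher than CA1-like nuclei in 919 of 10719 genes with at least 100 UMIs (8.57%) and at least 2-fold lower in 609 (5.68%). Against CA2/CA3-like nuclei, 1082 of 10095 genes were higher (10.7%) and 588 lower (5.82%). Counts of list members given below are to be read against these shares. The median log2 ratio of all genes was 0.09 over CA1-like and 0.07 over CA2/CA3-like nuclei. With mean UMIs per nucleus and no scaling these medians were -0.18 and -0.29, and the balance turned over, with 701 higher and 877 lower genes over CA1-like and 751 and 1203 over CA2/CA3-like nuclei, so ratios below are relative to class totals. The leading genes were picked by the size of the smaller of the 2 ratios, with every set in the same direction, and 755 genes qualified on the higher and 459 on the lower side. Agreement over sets was thus a condition of the choice and is no support for these genes.

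The gene furthest apart was Slc4a4, the electrogenic sodium bicarbonate cotransporter. It had 1104, 772, 848, 841, 529.7 and 643 CPM in granule nuclei of sets 1 to 6, against 7.07 to 12.8 CPM in CA1-like and 0 to 10.25 CPM in CA2/CA3-like nuclei. Every granule value was above every reference value, and the pooled level was 92.0-fold higher than in CA1-like (95% interval 74.4 to 115) and 129-fold higher than in CA2/CA3-like nuclei (79.6 to 226). Adarb2, a brain-specific relative of the RNA-editing deaminases, had 995 to 2041 CPM over the sets in granule nuclei, against 17.9 to 41.1 CPM in CA1-like nuclei. It was 56.3-fold higher (50.2 to 63.4) than in CA1-like and 81.1-fold higher (62.0 to 108) than in CA2/CA3-like nuclei. Adarb2 is better known as a marker of interneurons. The inhibitory markers, which the rules of all 3 classes capped at 1 UMI per nucleus, summed to 31.1 CPM in granule, 6.98 CPM in CA1-like and 4.24 CPM in CA2/CA3-like nuclei, and their part in the level of Adarb2 was not tested. Ptchd4, a patched-domain protein, had 573 CPM in granule nuclei, and was 78.3-fold (61.5 to 101) and 71.2-fold (45.5 to 118) higher than in CA1-like and CA2/CA3-like nuclei.

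Pde7b, a cAMP-specific phosphodiesterase, was 27.6-fold (23.2 to 33.2) higher than in CA1-like and 65.0-fold (38.7 to 119) higher than in CA2/CA3-like nuclei, or 104-fold without set 5. Ntf3, the gene of neurotrophin-3, had 62.1, 100.1, 104.5, 83.8, 19.99 and 82.9 CPM in granule nuclei of sets 1 to 6, against 0 to 6.06 CPM in CA1-like nuclei. Its pooled ratio was 23.1-fold (16.5 to 33.5) over CA1-like and 22.8-fold (11.99 to 50.0) over CA2/CA3-like nuclei, with set 5 the lowest. Igfbp5, a binding protein of insulin-like growth factors, was 24.7-fold (14.6 to 45.5) and 45.2-fold (12.5 to 374) higher over the same classes, the second being 77.7-fold (13.9 to 3076) without set 4, from 1 UMI. Mkx, the homeobox factor Mohawk, was even across sets at 171 to 228 CPM in granule nuclei, against 4.41 to 11.3 CPM in CA1-like nuclei. Npnt, which encodes the matrix protein nephronectin, was 34.9-fold higher (20.7 to 64.0) than in CA1-like nuclei. Fam163b was 18.8-fold higher (14.3 to 25.3). Sv2c, a synaptic vesicle protein, was 31.2-fold higher (21.5 to 47.1), but it overlaps 2 other annotated genes, Gm20075 on its strand and Gm17190 on the other, so its reads are uncertain.

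Among the 14 highest genes, 4 were higher still in oligodendrocyte-like nuclei, the class whose markers 164 members also carried. Dock10, an activator of Rac and Cdc42, had 1130 CPM in granule, 31.4 CPM in CA1-like and 3253 CPM in oligodendrocyte-like nuclei. Its ratio over CA1-like nuclei was 36.0 with all members and 35.3 without members that carried other markers. Zfp536, a zinc finger repressor, had 330.0 CPM in granule, 10.3 CPM in CA1-like and 2958 CPM in oligodendrocyte-like nuclei. Erbin, a scaffold that binds ErbB2, was 19.8-fold higher than in CA1-like nuclei with all members and 12.8-fold without those members. Gprc5b, an orphan receptor with an overlapping gene, Iqck, on the other strand, had 45.9 CPM in granule, 1.77 CPM in CA1-like and 182 CPM in oligodendrocyte-like nuclei. It had no UMI in CA2/CA3-like nuclei, which makes it at least 36.1-fold higher than the floor.

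The 10 lowest genes were low relative to both pyramidal classes. Chrm3, the muscarinic M3 receptor, had 43.1, 151, 95.8, 80.9, 330 and 193 CPM in granule nuclei of sets 1 to 6, against 1615 to 2309 CPM in CA1-like and 1557 to 1953 CPM in CA2/CA3-like nuclei. No granule set came near the reference sets, and the pooled level was 19.1-fold lower than in CA1-like nuclei (18.1 to 20.1). Without members carrying other markers it was 46.1-fold lower. Neurod6, a proneural-type factor of pyramidal neurons, was 14.7-fold (11.9 to 18.4) and 20.7-fold (16.4 to 26.4) lower than in CA1-like and CA2/CA3-like nuclei, the second being 13.7-fold without set 1. Sv2b, a vesicle protein related to Sv2c, was 15.04-fold (13.6 to 16.7) and 21.3-fold (19.1 to 23.9) lower, so granule nuclei had a low Sv2b and a high Sv2c relative to the same classes. Runx1t1, a transcriptional corepressor, was 17.0-fold lower than in CA1-like nuclei with all members and 71.5-fold lower without those with other markers, the largest such shift among the 10. Kcnc2, the Kv3.2 potassium channel, was 12.03-fold (11.1 to 13.0) and 21.5-fold (19.8 to 23.5) lower. Khdrbs3, an RNA-binding splicing regulator, was 13.8-fold lower than in CA1-like nuclei, and Cntnap5c, a contactin-associated protein, 14.7-fold lower. Slc9a2, a sodium-proton exchanger, was 20.9-fold, St8sia5, a sialyltransferase of gangliosides, 14.9-fold, and Plch2, a phospholipase C, 14.5-fold lower. Without members carrying other markers, every one of the 10 ratios moved by over 1.5 times away from 1, to between 23.0-fold (Cntnap5c) and 71.5-fold lower than in CA1-like nuclei. Over CA2/CA3-like nuclei the 10 ratios likewise moved to between 30.6-fold (St8sia5 and Plch2) and 66.9-fold lower (Sv2b), with Kcnc2 at 44.75-fold and Neurod6 at 34.75-fold. The members left out were chosen in part by CA1, CA2/CA3, cortical or subicular markers. The direction of these moves therefore follows in part from that choice and is no support. The reference classes were not filtered for oligodendrocyte or microglial markers.

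**Figure D2:**
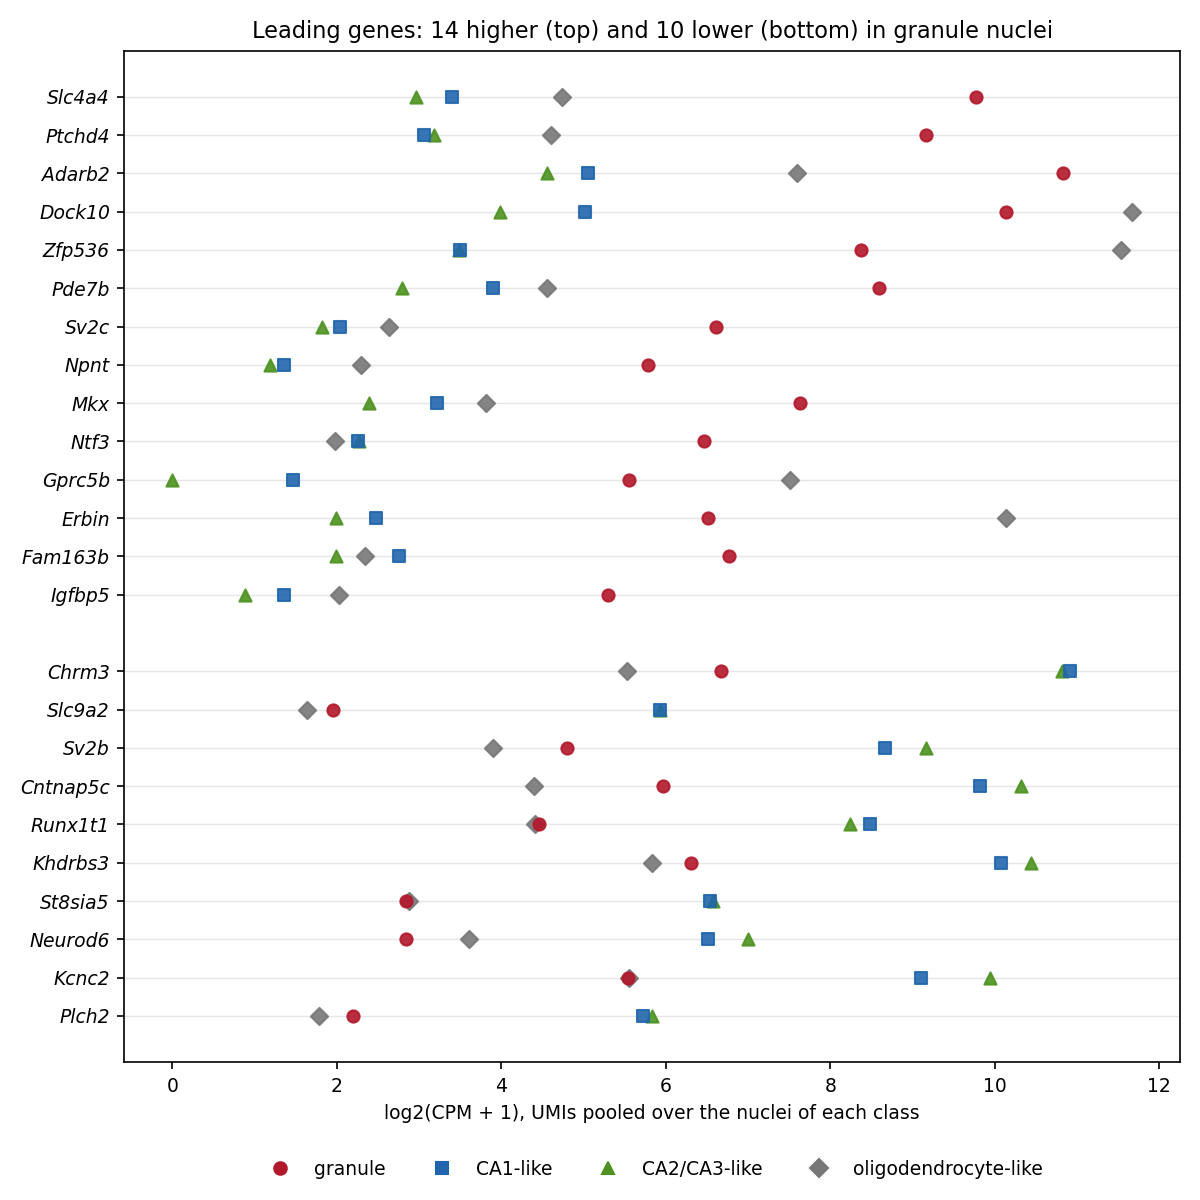
Pooled levels, as log2(CPM + 1) on the horizontal axis, of the 14 highest and 10 lowest genes of granule nuclei in granule, CA1-like, CA2/CA3-like and oligodendrocyte-like nuclei. Slc4a4 lies at 876.5 CPM in granule and 9.53 CPM in CA1-like nuclei, Dock10, Zfp536, Gprc5b and Erbin are highest in oligodendrocyte-like nuclei, and Chrm3 lies at 101 CPM in granule and 1927 CPM in CA1-like nuclei.

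Genes known from mature granule neurons, other than the rule markers, were mostly high. Of 22, 21 were at least 2-fold higher and 1 lower than in CA1-like nuclei (all genes: 8.57 and 5.68%), with a median log2 ratio of 3.20. Against CA2/CA3-like nuclei, 18 were higher, 4 in between and 0 lower (all genes: 10.7% higher and 5.82% lower), with a median of 3.62. The list was chosen for granule neurons with these data known, so this count is no independent support. Sema5a, an axon guidance protein, had 625, 579.5, 727, 731, 359.8 and 449 CPM in granule nuclei of sets 1 to 6, against 2.25 to 9.65 CPM in CA1-like and 40.1 to 113 CPM in CA2/CA3-like nuclei. It was 127.5-fold higher (95.5 to 174) than in CA1-like but 8.24-fold higher (7.13 to 9.58) than in CA2/CA3-like nuclei. Synpr, the vesicle protein synaptoporin of mossy fibres, showed the same order, 54.7-fold (47.0 to 64.1) and 3.97-fold (3.66 to 4.31) higher, as did the Notch coactivator Maml2 at 52.6-fold and 8.62-fold.

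Calbindin and the delta subunit had the other order. Calb1 had 119, 72.8, 87.6, 94.0, 99.95 and 55.9 CPM in granule nuclei of sets 1 to 6, against 21.5 to 41.4 CPM in CA1-like and 0 to 6.14 CPM in CA2/CA3-like nuclei. The granule and CA1-like ranges did not overlap, and the pooled ratio was 3.004 over CA1-like (2.64 to 3.43) and 43.2 over CA2/CA3-like nuclei (18.5 to 133), or 91.8 (25.4 to 759) without set 2, from 2 UMIs. Gabrd was 5.04-fold (3.92 to 6.58) and 44.8-fold (12.4 to 371) higher, the second against 2 UMIs that both lay in set 6. Il16, a cytokine precursor with a neuronal form, was 10.3-fold higher than in CA1-like nuclei and had a ratio of 0.688 (0.591 to 0.804) over CA2/CA3-like nuclei. Zbtb20, a zinc finger factor of hippocampal neurons, was 2.05-fold (2.01 to 2.08) higher than in CA1-like nuclei and at 0.997 (0.977 to 1.02) of CA2/CA3-like nuclei. Sorcs3, a sorting receptor, was the member lower than in CA1-like nuclei, with 116 CPM in granule nuclei against 727 CPM.

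Transcription factors were mixed. Of 25 factors of excitatory and granule lineages, 23 had enough UMIs; 6 were at least 2-fold higher and 4 lower than in CA1-like, and 6 higher and 3 lower than in CA2/CA3-like nuclei. Their median log2 ratios were 0.48 and 0.27. The higher and lower shares of all genes were 8.57 and 5.68% against CA1-like, and 10.7 and 5.82% against CA2/CA3-like nuclei. Rfx3, a factor of ciliary genes, had 2212, 1861, 1810, 1819, 969.5 and 1370 CPM in granule nuclei of sets 1 to 6, against 131 to 232 CPM in CA1-like nuclei, and was 8.84-fold higher (8.44 to 9.26). Mef2c, an activity-regulated factor, was 4.44-fold (4.13 to 4.78) and 9.67-fold (7.93 to 11.9) higher than in CA1-like and CA2/CA3-like nuclei. Bcl11b, also called Ctip2 and known to label granule and CA1 neurons, had 294 CPM in granule, 290.3 CPM in CA1-like and 37.3 CPM in CA2/CA3-like nuclei, a ratio of 1.01 (0.966 to 1.06) over CA1-like and 7.89 (6.39 to 9.86) over CA2/CA3-like nuclei. Bcl11a was lower than in both, with 239 CPM in granule, 557 CPM in CA1-like and 564 CPM in CA2/CA3-like nuclei. Meis2, a homeobox factor, was 11.5-fold lower than in CA1-like nuclei with all members and 35.0-fold lower without those carrying other markers. Neurod1, the founding member of the NeuroD family, had no UMI in any nucleus of the matrix and is not described.

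Glutamate receptors were compared by class. Of 9 measured AMPA and NMDA receptor genes, 0 were at least 2-fold different from CA1-like nuclei, with a median log2 ratio of -0.32. Of all genes, 8.57% were higher and 5.68% lower, so most genes lay in between as these did. Against CA2/CA3-like nuclei, 1 of 9 was higher (all genes: 10.7%). That gene was Grin3a, an NMDA receptor subunit that lowers calcium entry, with 44.2 CPM in granule, 80.7 CPM in CA1-like and 10.2 CPM in CA2/CA3-like nuclei. Without members carrying other markers it was 2.11-fold lower than in CA1-like nuclei. Gria2, the subunit that sets calcium permeability of AMPA receptors, had a ratio of 0.840 (0.829 to 0.851) over CA1-like and 0.774 (0.758 to 0.791) over CA2/CA3-like nuclei. Of 11 measured kainate and metabotropic receptors, 6 were higher than in CA1-like nuclei and 0 lower (all genes: 8.57 and 5.68%), with a median log2 ratio of 1.24. Against CA2/CA3-like nuclei, 4 were higher and 1 lower (all genes: 10.7 and 5.82%). The median over CA1-like nuclei depended on the processing: it was 0.38 without members carrying other markers, 0.35 after thinning to 1000 UMIs, when 4 of 9 were higher, and 0.45 for genes with at least 500 UMIs.

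Within that group, Grik3 had 63.0, 111, 99.2, 88.9, 79.96 and 104.5 CPM in granule nuclei of sets 1 to 6, against 0.689 to 23.4 CPM in CA1-like and 2.05 to 10.2 CPM in CA2/CA3-like nuclei. It was 7.10-fold (5.87 to 8.66) and 17.9-fold (10.2 to 34.8) higher. Grik4, which helps form the kainate receptors of CA3 synapses, was 2.87-fold higher (2.70 to 3.06) than in CA1-like and 3.92-fold lower than in CA2/CA3-like nuclei. Granule nuclei thus lay between the pyramidal classes, with 396 CPM against 138 CPM and 1551 CPM. Grm2, a presynaptic receptor of mossy fibres, had 41.7, 21.5, 20.9, 26.6, 19.99 and 23.4 CPM in granule nuclei of sets 1 to 6, against 0 to 4.55 CPM in CA1-like nuclei, and was 9.11-fold higher (6.17 to 13.99). Only 1 UMI of Grm2 was seen in CA2/CA3-like nuclei, which gives 64.4-fold (11.5 to 2548), or 42.5-fold without set 1. Grik1 had ratios of 2.63 and 2.26 over CA1-like and CA2/CA3-like nuclei with all members and 0.927 and 0.799 without members carrying other markers, with 259 CPM in oligodendrocyte-like nuclei. Without those members, Grik1 was not among the higher genes, and without set 5 its ratio over CA2/CA3-like nuclei was 1.89.

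The C1q-like proteins are secreted ligands that bridge synapses, and those of mossy fibres gather kainate receptors through neurexin-3. C1ql2 had 76.6, 7.83, 13.5, 13.1, 19.99 and 16.2 CPM in granule nuclei of sets 1 to 6, against 0 to 3.45 CPM in CA1-like and 0 to 3.48 CPM in CA2/CA3-like nuclei. Set 1 was the highest by far, but the pooled ratio over CA1-like nuclei was 27.3 (14.3 to 60.2) with it and 22.2 without it. C1ql3 had 673, 292, 330.0, 343, 959.5 and 1182 CPM in granule nuclei of sets 1 to 6, against 69.0 to 210.5 CPM in CA1-like and 6.14 to 38.2 CPM in CA2/CA3-like nuclei. It was 4.74-fold (4.41 to 5.09) and 29.1-fold (21.01 to 41.6) higher, and was high in sets 1, 5 and 6. Nrxn3 had 2179 CPM in granule nuclei, against 5909 CPM in CA1-like and 9218 CPM in CA2/CA3-like nuclei, 2.71-fold and 4.23-fold lower. The candidate receptors Adgrb1 and Adgrb2 had ratios of 0.912 (0.855 to 0.974) and 0.968 (0.896 to 1.05) over CA1-like nuclei. Of the list of 10, 8 had enough UMIs. Against CA2/CA3-like nuclei, 2 were higher and 2 lower (all genes: 10.7 and 5.82%), with a median log2 ratio of 0.26. Against CA1-like nuclei, 4 were higher and 1 lower (all genes: 8.57 and 5.68%), with a median log2 ratio of 0.60. That median was -0.04 after thinning, -0.05 for genes with at least 500 UMIs and 1.24 with at least 20.

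GABA-A receptor genes followed the delta subunit in part. Against CA1-like nuclei, 2 of 11 measured members were higher and 2 lower (all genes: 8.57 and 5.68%). Against CA2/CA3-like nuclei 6 were higher and 0 lower (all genes: 10.7 and 5.82%). The median log2 ratios were 0.03 and 1.04. Of the 6, Gabrg3 lay at 2.06-fold with all members and at 1.72-fold without those carrying other markers, and between 1.745-fold and 3.86-fold without 1 set, the highest without set 2 and under 2-fold without set 3, 4, 5 or 6. Gabra4, the alpha subunit that pairs with delta in the forebrain, was 2.36-fold (2.20 to 2.53) and 2.22-fold (1.97 to 2.504) higher. Gabra3 was 4.15-fold and Gabrg3 4.69-fold lower than in CA1-like nuclei. Gabra5, known for extrasynaptic receptors of pyramidal neurons, had ratios of 0.662 (0.622 to 0.705) and 0.559 (0.510 to 0.614), and was 2.03-fold lower than in CA2/CA3-like nuclei without set 1.

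**Figure D3:**
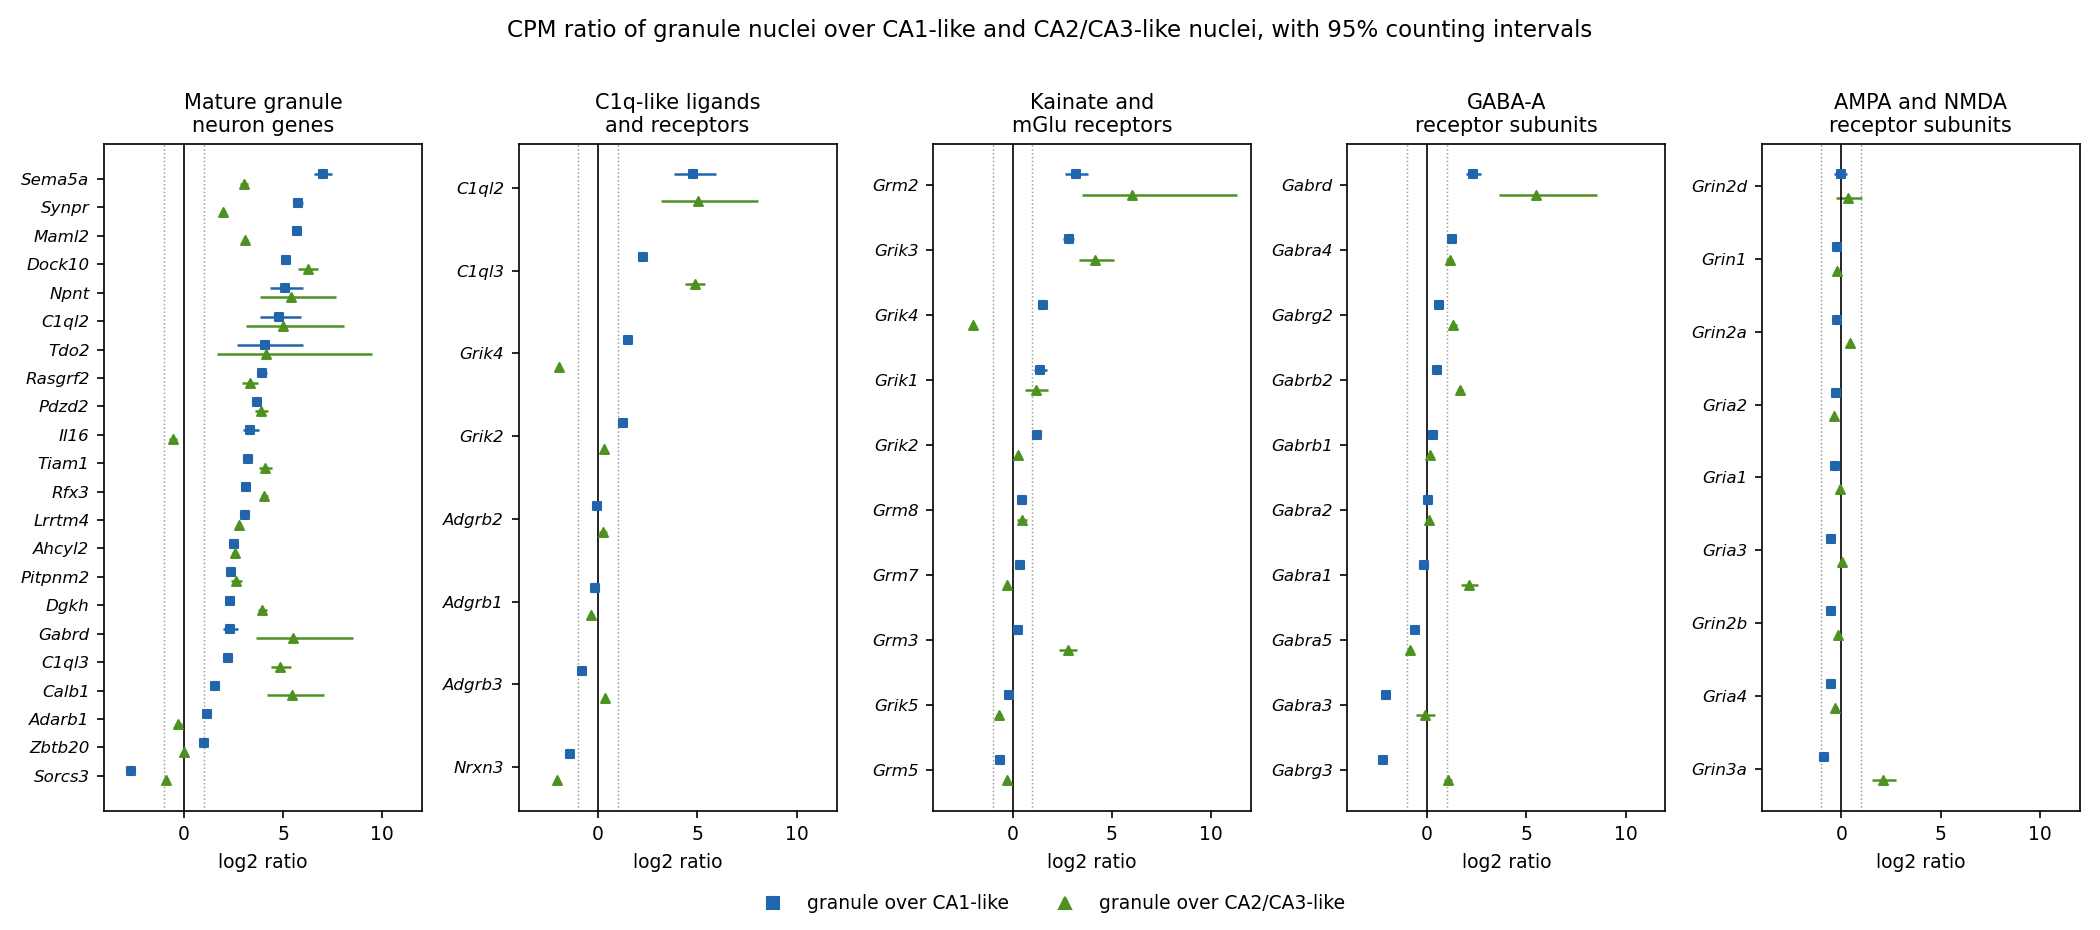
Log2 ratio of CPM in granule nuclei over CA1-like nuclei (squares) and over CA2/CA3-like nuclei (triangles), with 95% counting intervals, for members of 5 gene lists with enough UMIs, apart from 2 not reported here; dotted lines mark 2-fold. Mature granule neuron genes lie mostly to the right, with Sema5a at 127.5-fold over CA1-like nuclei, while AMPA and NMDA receptor genes lie near 0 apart from Grin3a.

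Potassium channels showed some of the widest contrasts between the references. Of 22 voltage-gated members, 6 were higher and 3 lower than in CA1-like nuclei (all genes: 8.57 and 5.68%). Against CA2/CA3-like nuclei, 7 were higher and 2 lower (all genes: 10.7 and 5.82%). The median log2 ratios were 0.18 and 0.36. Kcnh7, an Erg-type channel, had 273, 452, 392, 357, 645 and 485 CPM in granule nuclei of sets 1 to 6, against 1716 to 2969 CPM in CA1-like and 12.3 to 65.8 CPM in CA2/CA3-like nuclei. The 3 classes did not overlap in any set, with granule nuclei 5.60-fold lower than CA1-like and 13.97-fold higher (10.9 to 18.2) than CA2/CA3-like nuclei. Kcnq5, a subunit of the M-current, had 152.5 CPM in granule nuclei, against 1083 CPM in CA1-like and 5175 CPM in CA2/CA3-like nuclei, 7.10-fold and 33.9-fold lower. Without members carrying other markers these were 20.6-fold and 98.3-fold. Among Kv3 genes the subunits moved apart: Kcnc4 was 11.5-fold higher (7.76 to 17.8) and Kcnc1 4.11-fold higher (3.43 to 4.97) than in CA1-like nuclei, while Kcnc2 was among the lowest genes above. Kcnd3, an A-type channel, was 3.21-fold higher (3.03 to 3.40) than in CA1-like nuclei. Dpp10, an auxiliary subunit of A-type channels, had ratios of 0.627 with all members and 0.2005 without members carrying other markers over CA1-like nuclei, and of 3.18 and 1.02 over CA2/CA3-like nuclei.

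Of the 14 measured inward rectifier and leak channels, 4 were higher and 2 lower than in CA1-like nuclei (all genes: 8.57 and 5.68%). Against CA2/CA3-like nuclei, 7 were higher and 1 lower (all genes: 10.7 and 5.82%). The median log2 ratios were 0.39 and 1.06. Kcnk1 was 3.23-fold (2.77 to 3.78) and 3.24-fold (2.45 to 4.38) higher, and Kcnj2, a Kir2 channel, 3.54-fold (2.11 to 6.31) higher than in CA1-like nuclei. Kcnn2, an SK channel, was 6.13-fold lower than in CA1-like and 2.75-fold lower than in CA2/CA3-like nuclei. Scn3a, a sodium channel best known from development, was 2.5-fold (2.33 to 2.69) and 3.77-fold (3.22 to 4.43) higher. Cacna1h, a T-type calcium channel, was 2.25-fold (2.01 to 2.52) and 2.31-fold (1.88 to 2.85) higher, while the T-type genes Cacna1i and Cacna1g were 2.73-fold and 2.80-fold lower than in CA1-like nuclei. The L-type gene Cacna1c was 2.78-fold higher (2.70 to 2.86) than in CA1-like nuclei and at 0.818 (0.794 to 0.843) of CA2/CA3-like nuclei. Of 4 measured TRPC relatives of the rule marker Trpc6, 0 were higher and 2 lower than in CA1-like nuclei (all genes: 8.57 and 5.68%). The lower genes were Trpc4 at 2.64-fold and Trpc7 at 4.31-fold. Against CA2/CA3-like nuclei, 0 of 3 were higher and 0 lower (all genes: 10.7 and 5.82%).

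Presynaptic genes also parted. Of 24 measured release and loading genes, 8 were higher and 5 lower than in CA1-like nuclei (all genes: 8.57 and 5.68%), with a median log2 ratio of 0.23. Syt10, a synaptotagmin, was 8.07-fold (6.10 to 10.9) and 13.99-fold (7.06 to 32.5) higher. Cplx2, a complexin, was 3.66-fold (3.26 to 4.13) and 2.09-fold (1.77 to 2.48) higher, and over CA2/CA3-like nuclei 1.96-fold without set 1 and 1.997-fold without set 4. Unc13c was 2.87-fold higher (2.26 to 3.69) and Unc13b 2.33-fold lower than in CA1-like nuclei, both of which encode Munc13 priming proteins. Cadps2, which primes dense-core vesicles, was 5.78-fold lower than in CA1-like nuclei, and Cadps 3.47-fold lower than in CA2/CA3-like nuclei. Syn3, a synapsin, was 5.94-fold higher (5.04 to 7.05) than in CA2/CA3-like nuclei.

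Genes of calcium handling ran in both directions. The plasma membrane pump Atp2b4 was 3.12-fold (2.54 to 3.85) and 6.96-fold (4.04 to 13.1) higher, while Atp2b1 was 2.25-fold lower than in CA1-like nuclei. The exchanger Slc8a2 was 2.41-fold (2.21 to 2.63) and 2.20-fold (1.89 to 2.57) higher, while Slc8a1 was 7.14-fold and 3.84-fold lower, or 12.1-fold and 6.48-fold without members carrying other markers. Of the ryanodine receptors, Ryr1 was 2.32-fold (1.92 to 2.81) and 4.68-fold (2.93 to 7.96) higher and Ryr3 3.59-fold and 3.12-fold lower. In all, 5 of 12 measured members were higher and 4 lower than in CA1-like nuclei (all genes: 8.57 and 5.68%). The median log2 ratio was 0.19, or 0.78 for genes with at least 20 UMIs.

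Second messenger genes gave 1 higher and 3 lower of 16 measured kinases and cyclases against CA1-like nuclei (all genes: 8.57 and 5.68%). Camk2g was 2.66-fold (2.39 to 2.97) and 3.87-fold (3.07 to 4.95) higher, whereas Camk4, a nuclear kinase of CREB, was 2.66-fold and 4.35-fold lower. Adcy1, a calcium-stimulated adenylyl cyclase, had a ratio of 1.93 (1.81 to 2.05) over CA1-like nuclei, or 2.06 without members carrying other markers and 2.02 without set 1, and was 7.599-fold higher (6.16 to 9.48) than in CA2/CA3-like nuclei. Among phosphodiesterases, Pde1b was 3.90-fold (3.27 to 4.68) and 7.34-fold (4.72 to 12.1) higher, and Pde1a 6.02-fold and 3.81-fold lower. Pde4b had a ratio of 1.15 over CA1-like nuclei with all members and 0.0940 without members carrying other markers, and its level in oligodendrocyte-like nuclei was 11770 CPM. Pde8a had 3.60 and 1.04 over CA1-like nuclei in the same order.

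Of 15 measured semaphorins, plexins and neuropilins, genes of axon guidance, 6 were higher and 2 lower than in CA1-like nuclei (all genes: 8.57 and 5.68%). Against CA2/CA3-like nuclei, 2 of 14 were higher and 2 lower (all genes: 10.7 and 5.82%). Sema5b was 18.03-fold higher (11.3 to 30.7) than in CA1-like nuclei and at 0.663 (0.546 to 0.810) of CA2/CA3-like nuclei. Sema6d was 4.32-fold (4.04 to 4.63) and 4.70-fold (4.12 to 5.38) higher. Sema3e was 11.3-fold and 9.77-fold lower, and Plxna1, a plexin, 6.46-fold and 7.97-fold lower. Of 12 measured Slit, Robo, Unc5 and netrin genes, 4 were higher and 1 lower than in CA1-like nuclei (all genes: 8.57 and 5.68%). Against CA2/CA3-like nuclei, 2 were higher and 4 lower (all genes: 10.7 and 5.82%). Ntng1, a membrane-bound netrin, was 2.71-fold (2.59 to 2.83) and 7.49-fold (6.54 to 8.62) higher. Unc5d, a netrin receptor, was 7.10-fold (6.46 to 7.83) higher than in CA1-like nuclei, or 14.9-fold (12.8 to 17.5) without set 2, and Slit2 8.76-fold lower than in CA2/CA3-like nuclei. In the Reelin pathway, the adaptor Dab1 had a ratio of 1.21 (1.19 to 1.22) over CA1-like and was 2.97-fold higher (2.87 to 3.07) than in CA2/CA3-like nuclei.

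Partners of the rule marker Dsp were examined because desmoplakin works in desmosomes. Dsg2, a desmosomal cadherin, had 30.0, 26.3, 24.9, 23.4, 24.99 and 28.8 CPM in granule nuclei of sets 1 to 6, against 0 to 1.59 CPM in CA1-like and 0 to 4.70 CPM in CA2/CA3-like nuclei. The levels of the granule sets lay close together, and the pooled ratio was 79.1 (26.9 to 385) over CA1-like nuclei, which held 3 UMIs, or 172 (30.6 to 6816) without set 2, where 1 UMI remained. Pkp2, a plakophilin, went the other way, 2.33-fold and 2.65-fold lower. Jup, the plakoglobin gene, had 2.48 CPM in granule and 1.66 CPM in CA1-like nuclei, a ratio of 1.495 (0.803 to 2.92). Of 6 measured members, 1 was higher and 1 lower against each class. Of all genes, 8.57% were higher and 5.68% lower against CA1-like, and 10.7 and 5.82% against CA2/CA3-like nuclei. Of the polo-like kinases other than Plk5, Plk2 was 4.62-fold lower than in CA1-like nuclei, and Plk4 had a ratio of 1.01 (0.776 to 1.32).

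The series title concerns SETD1B, a histone H3 lysine 4 methyltransferase. Setd1b had 22.6, 16.7, 16.4, 18.2, 19.99 and 14.4 CPM in granule nuclei of sets 1 to 6, against 23.4, 11.7, 15.7, 13.2, 22.3 and 20.3 CPM in CA1-like nuclei. The values overlapped, with granule nuclei higher in 3 of 6 sets, and the pooled ratio was 1.15 (0.935 to 1.41) over CA1-like and 1.03 (0.742 to 1.46) over CA2/CA3-like nuclei. All 6 measured H3K4 methyltransferases lay between 2-fold higher and lower against both classes, as most genes did. Of all genes, 8.57% were higher and 5.68% lower than in CA1-like nuclei, and 10.7 and 5.82% against CA2/CA3-like nuclei. Kmt2a had the ratio furthest from 1 over CA1-like nuclei, 0.798 (0.757 to 0.841). Among nuclear receptors, Nr3c1, the glucocorticoid receptor, had a ratio of 0.706 (0.653 to 0.763) over CA1-like and was 2.345-fold higher (1.90 to 2.92) than in CA2/CA3-like nuclei.

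Immediate early genes, which neurons switch on within minutes of activity, were compared as a list. Of 14 measured, 8 were at least 2-fold lower, 4 in between and 2 higher than in CA1-like nuclei, with a median log2 ratio of -1.39. There 5.68% of all genes were lower and 8.57% higher. Against CA2/CA3-like nuclei, 2 of 9 were lower, 5 in between and 2 higher (all genes: 5.82% lower and 10.7% higher), with a median of -0.18. Nr4a1, an orphan nuclear receptor, had 6.80 CPM in granule, 55.9 CPM in CA1-like and 26.3 CPM in CA2/CA3-like nuclei, and was 8.21-fold lower than in CA1-like nuclei. It was seen in 3.60% of granule, 29.6% of CA1-like and 1.48% of oligodendrocyte-like nuclei, and, with each nucleus thinned to 1000 UMIs, in 0.530, 5.61 and 0.486%. Arc, a synaptic plasticity gene, was seen in 1.01% of granule (0.626 to 1.54%), 15.5% of CA1-like and 1.48% of oligodendrocyte-like nuclei. Its share in granule nuclei was thus not above that in oligodendrocyte-like nuclei, although the granule nuclei were the deeper ones (median 6636 against 1756 UMIs). Fos was seen in 0.240% of granule, 0.247% of oligodendrocyte-like and 2.06% of CA1-like nuclei. Free RNA was not measured, and whether these UMIs came from it was not tested. These shares are pooled over sets, and the sets differ in make-up: set 6 held 223 granule and 0 oligodendrocyte-like nuclei, set 7 held 1 and 476. Homer1 was seen in 39.1% of granule and 73.7% of CA1-like nuclei, and in 8.57 and 22.03% after thinning, with 4.90% in thinned oligodendrocyte-like nuclei. In contrast, Jun was seen in 24.7% of granule (22.8 to 26.6%), 5.60% of CA1-like and 5.12% of oligodendrocyte-like nuclei, and in 5.92, 0.983 and 2.47% after thinning. Jun had 77.9, 30.8, 30.7, 32.3, 59.97 and 57.7 CPM in granule nuclei of sets 1 to 6, against 4.83 to 17.5 CPM in CA1-like nuclei, 6.08-fold higher (4.71 to 7.97) in all and 4.31-fold without set 1. Btg2, an antiproliferative early gene, was 3.18-fold higher (2.29 to 4.52).

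Nuclei with several early genes at once were counted over 11 genes: Fos, Fosb, Arc, Egr1, Egr2, Egr3, Egr4, Npas4, Nr4a1, Nr4a3 and Junb. This choice was made after values had been seen. It leaves out Jun and Btg2, the 2 measured members of the list that were higher than in CA1-like nuclei. The counts below depend on the choice, and other choices were not tested. At least 1 of the genes was found in 20.2% of granule, 58.6% of CA1-like, 61.2% of CA2/CA3-like and 7.03% of oligodendrocyte-like nuclei. At least 3 were found in 13 granule nuclei (0.625%), against 122 of 1017 CA1-like nuclei, 7.6% of CA2/CA3-like and 0.106% of oligodendrocyte-like nuclei. At least 4 were found in 7 granule nuclei, or 0.336%, against 5.70% of CA1-like and 3.20% of CA2/CA3-like nuclei.

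**Figure D4:**
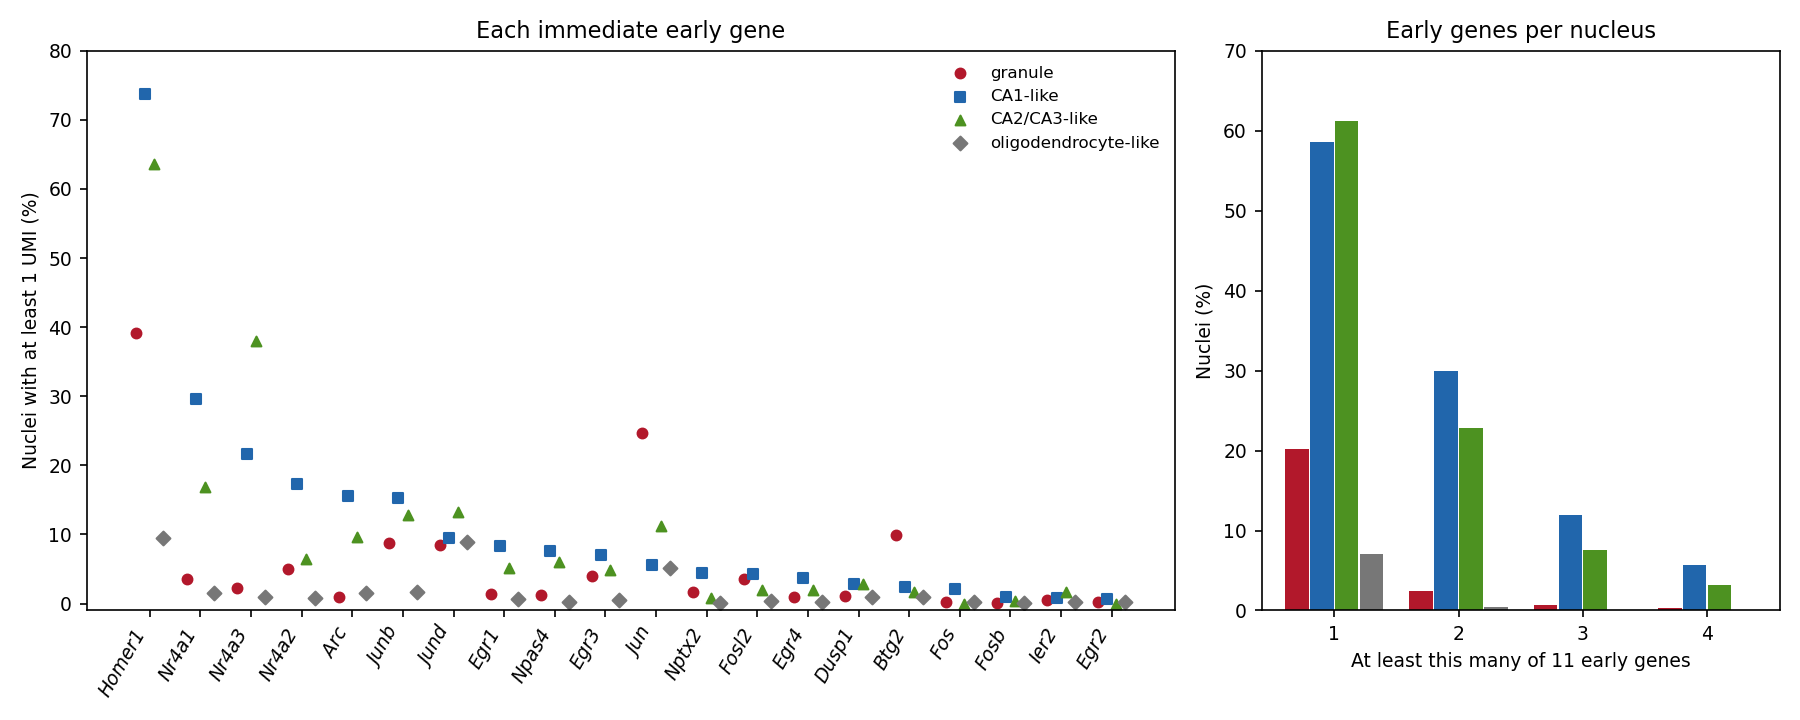
Left, the percentage of granule, CA1-like, CA2/CA3-like and oligodendrocyte-like nuclei with at least 1 UMI of each immediate early gene; right, the percentage of nuclei in these classes, in the same colours, with UMIs of at least 1, 2, 3 or 4 of 11 early genes. Granule points lie below CA1-like points for Homer1, Nr4a1 and Arc and above them for Jun (24.7%) and Btg2 (9.95%). On the right, 0.625% of granule nuclei held at least 3 early genes, against 122 of 1017 CA1-like nuclei. Jun and Btg2 are not among the 11 genes.

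Among neurotrophin and peptide genes, 2 of 11 measured were higher and 2 lower than in CA1-like nuclei (all genes: 8.57 and 5.68%). Bdnf had 106.8, 47.3, 63.5, 74.5, 19.99 and 27.0 CPM in granule nuclei of sets 1 to 6, against 59.98, 22.6, 40.9, 29.4, 43.1 and 6.77 CPM in CA1-like nuclei. It was higher in 5 of 6 sets, with a pooled ratio of 2.01 (1.77 to 2.29), and lay between 1.89 and 1.98 without set 1, 2, 4 or 6, so it sits at the 2-fold line. Pdyn, the prodynorphin gene of mossy fibre peptides, was seen in 47 granule nuclei, or 2.26% (1.66 to 2.99%), against 0.0983% of CA1-like and 0.106% of oligodendrocyte-like nuclei, and had 53 UMIs in all. Cck was 2.31-fold (1.91-fold without set 1) and Vgf 2.47-fold lower than in CA1-like nuclei, and Chgb 2.97-fold lower than in CA2/CA3-like nuclei. Scg2 was 3.87-fold higher (2.69 to 5.78) than in CA2/CA3-like nuclei.

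Genes of newborn granule neurons were mixed and mostly sparse. Of 15, 6 had enough UMIs against CA1-like nuclei, where 2 were higher and 1 lower (all genes: 8.57 and 5.68%), with a median log2 ratio of 0.21. That median was 1.13 after thinning, from 1 gene, and 1.665 for genes with at least 500 UMIs. Dcx, the migration gene doublecortin, was seen in 11.6% of granule (10.2 to 13.0%), 11.2% of CA1-like, 20.8% of CA2/CA3-like and 0.990% of oligodendrocyte-like nuclei, and its CPM ratio over CA1-like nuclei was 1.07 (0.885 to 1.29). Sox11, a factor of immature neurons, was 2.92-fold higher (2.349 to 3.65) than in CA1-like nuclei, and 1.78-fold without set 1, where 28.8% of granule nuclei had it, against 10.8 to 19.6% in sets 2 to 6. Mki67, which encodes the proliferation antigen Ki-67, was seen in 400 granule nuclei, or 19.2% (17.5 to 20.98%), against 7.57% of CA1-like and 1.17% of oligodendrocyte-like nuclei, and was 3.45-fold higher (2.74 to 4.39) than in CA1-like nuclei. Top2a, another gene of dividing cells, was seen in 5 granule nuclei (0.240%), and Eomes and Igfbpl1, genes of progenitors and young neurons, in 1 and 17, so no cycling is read from Mki67. Neurod1 and Tubb3 had no UMI in the matrix, and Nes had none in these classes.

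Genes known from the long axis of the dentate gyrus were each seen in a part of the granule nuclei. Lct, the lactase gene, was seen in 24.1%, Gsg1l, an AMPA receptor auxiliary protein, in 36.5%, and Trhr, the receptor of thyrotropin-releasing hormone, in 11.5% of granule nuclei. Over sets 1 to 6 these shares ran from 5.56 to 30.9%, 11.2 to 53.3% and 6.81 to 22.2%. Shares at such low counts do not by themselves measure variation between nuclei, and position along the axis was not measured. In oligodendrocyte-like nuclei, thinned shares of these genes were at most 0.309%, against 4.43, 8.77 and 2.65% of thinned granule nuclei. All 3 were higher than in CA1-like nuclei, Lct 4.34-fold (3.51 to 5.43), Gsg1l 7.04-fold (5.88 to 8.47) and Trhr 13.7-fold (8.45 to 23.8). Stra6, a retinol transporter, was 28.9-fold higher (16 to 58.2) and Spata13 20.4-fold higher (12.1 to 37.7), while Tox3 had a ratio of 0.910 (0.7995 to 1.04) over CA1-like and was 18.4-fold higher (7.85 to 57.0) than in CA2/CA3-like nuclei.

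To see whether these genes vary together, 74 granule nuclei with at least 2 UMIs of Trhr were set against 1589 with none, among the 1789 members without markers of another type. The 126 nuclei with 1 UMI were left out. The Trhr nuclei were deeper, with a median of 10042 against 6020 UMIs, and 3 sets held at least 15 of them. The choice of genes and limits was made after values had been seen, and the split is a range of counts, not a cell type. Tox3 had 117 CPM in nuclei with Trhr against 28.7 CPM in those without, 4.09-fold higher (3.18 to 5.22). Nr2f2, an orphan nuclear receptor, was 3.71-fold (2.11 to 6.21) and Grp, gastrin-releasing peptide, 2.38-fold (1.17 to 4.41) higher. All 3 were higher in 3 of 3 sets. The genes listed with the dorsal side were lower: Gsg1l 3.21-fold, Lct 2.26-fold and Spata13 8.33-fold, a ratio of 0.120 (0.0247 to 0.354) from 3 UMIs, each in 3 of 3 sets. Stra6 had a ratio of 0.759 (0.476 to 1.15). Of the rest of the list, Penk had 0.432 (0.0106 to 2.58) and Col6a1 0.356 (0.0088 to 2.102), from 1 UMI each in nuclei with Trhr.

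Genes outside the list also differed in this split. Its highest and lowest genes were chosen among those with the same direction in every set used. Scn9a, a sodium channel, had 195 CPM in nuclei with Trhr and 29.3 CPM in those without, 6.63-fold higher (5.39 to 8.12). Stk32b, a kinase gene, was 6.72-fold (4.94 to 9.06), Spock1, a proteoglycan, 5.23-fold (3.91 to 6.93) and Pdzrn4, a ubiquitin ligase family member, 5.17-fold higher (4.60 to 5.82). Rgs6, a regulator of G protein signalling, had 2.76 CPM in nuclei with Trhr and 69.9 CPM in those without, 25.3-fold lower, a ratio of 0.0395 (0.00477 to 0.143) from 2 UMIs. Rasgrp1, a Ras activator, had a ratio of 0.0737 (0.0152 to 0.2165) from 3 UMIs, or 13.6-fold lower, and Syndig1, a synapse differentiation gene, was 6.98-fold lower. Of the rule markers, Prox1 and Glis3 had ratios of 1.06 (0.932 to 1.21) and 1.12 (1.04 to 1.21), while Stxbp6, Plk5 and Dsp had 0.571, 0.583 and 0.50.

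The same was done with Gsg1l, where 148 nuclei had at least 3 UMIs, 1172 had none and 469 lay in between. The Gsg1l nuclei were again deeper, with a median of 8151 against 5864 UMIs. Sets 1 to 6 held 19, 51, 47, 29, 1 and 1 of them, and the ratios pool these sets. Rasgrp1 and Rgs6 were 3.37-fold (2.74 to 4.14) and 3.26-fold (2.68 to 3.96) higher in nuclei with Gsg1l. Both were among the highest genes of the split, which were chosen for the same direction in 4 of 4 sets. Their agreement over sets is therefore no support. Trhr was 3.38-fold lower. Sorcs3, low in granule nuclei as a whole, had 265 CPM in nuclei with Gsg1l and 41.6 CPM in those without, 6.37-fold higher (5.44 to 7.45). Necab3, a calcium-binding protein, was 6.27-fold higher (4.18 to 9.42). Col23a1, a membrane collagen, was 10.5-fold lower in nuclei with Gsg1l and 4.48-fold higher (3.47 to 5.75) in nuclei with Trhr. Ryr1 and Cacna1g were 7.74-fold and 6.98-fold lower in nuclei with Gsg1l. Lct had a ratio of 0.852 (0.628 to 1.13), lower in 4 of 4 sets, and Tox3 of 1.02 (0.747 to 1.36). Spata13 had 1.95 (1.43 to 2.62), higher in 3 of 4 sets. Grp and Nr2f2, which were higher with Trhr, were not lower with Gsg1l. Their ratios were 1.66, higher in 4 of 4 sets, and 1.43, higher in 3 of 4 sets. Stra6, Penk and Col6a1 had 0.883, 1.97 and 0.986. The intervals of Grp, Nr2f2, Stra6, Penk and Col6a1 all included 1. Plk5 and Trpc6 were 2.26-fold (1.93 to 2.64) and 2.14-fold (1.99 to 2.30) higher in nuclei with Gsg1l. The splits by Trhr and by Gsg1l use the same nuclei and are not independent.

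**Figure D5:**
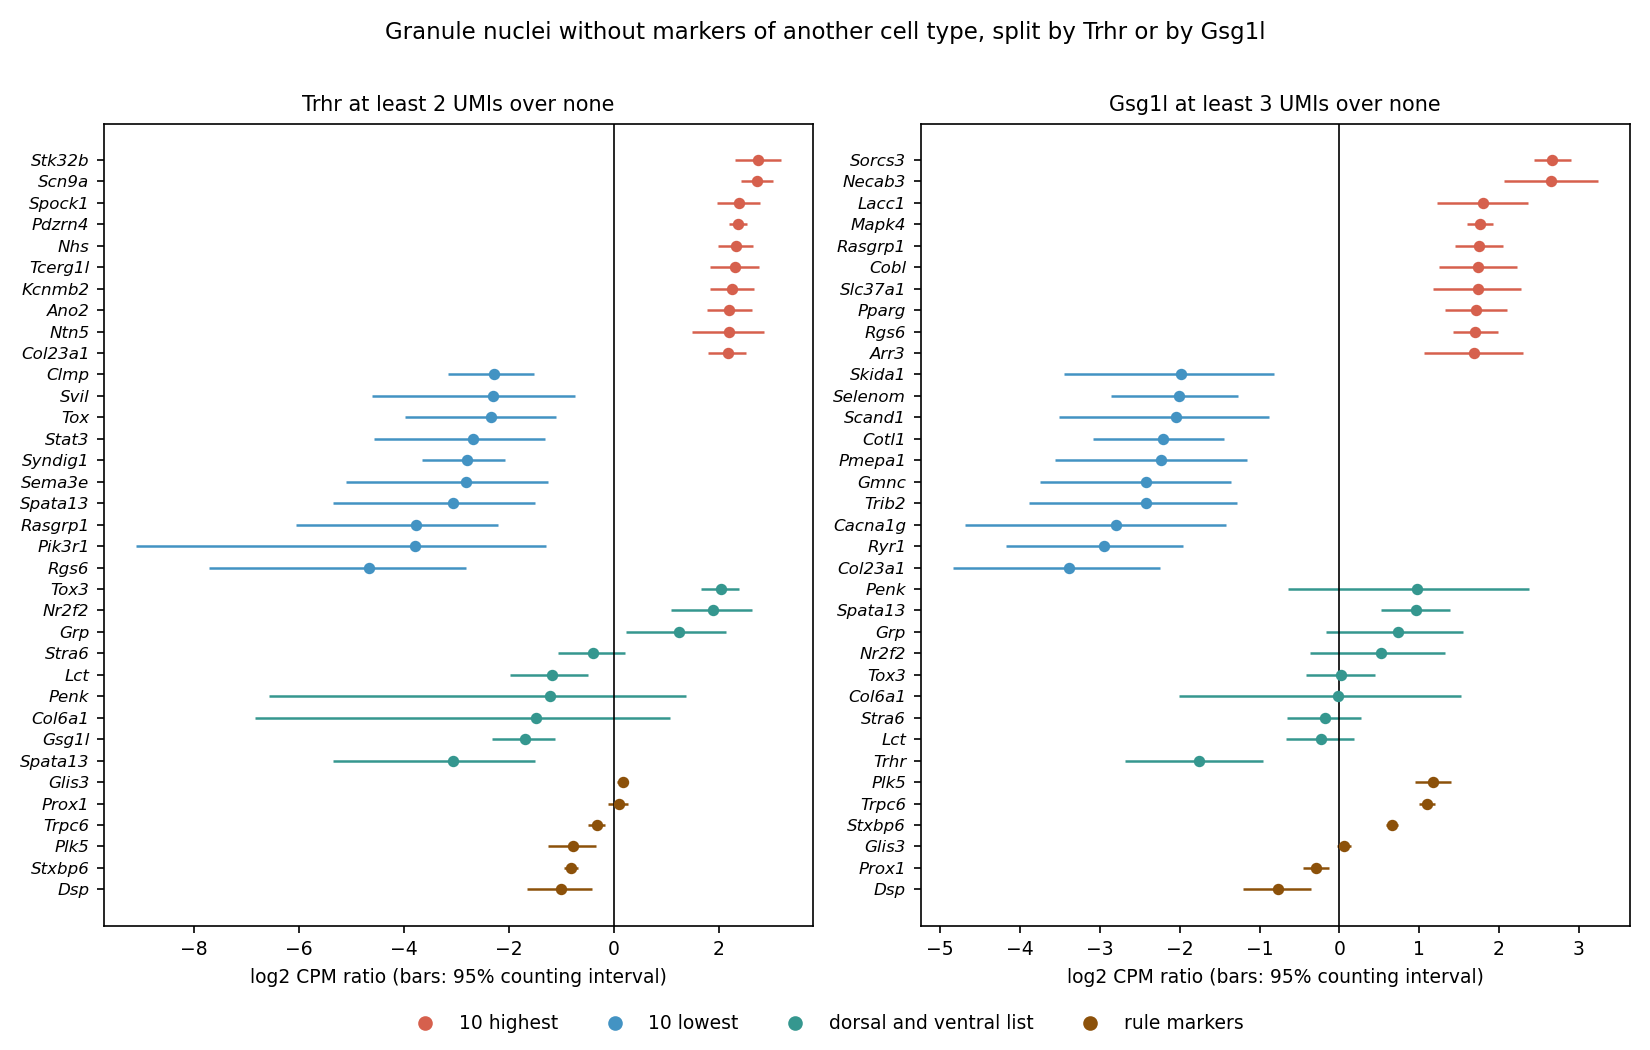
Log2 ratio of CPM, with 95% counting intervals, in granule nuclei with Trhr (at least 2 UMIs, left) or Gsg1l (at least 3 UMIs, right) over granule nuclei with none, for the 10 highest and 10 lowest genes of each split, the dorsal and ventral list and the rule markers. The highest and lowest genes were chosen among those with the same direction in every set used. Scn9a (6.63-fold higher) and Rgs6 (25.3-fold lower) lie far apart on the left, and Sorcs3 (6.37-fold higher) and Col23a1 (10.5-fold lower) on the right.

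Variation within a set was described by the variance of the counts divided by the Poisson variance, with a median over 7768 genes of 1.11. Genes needed at least 200 UMIs, and in genes near that floor sampling makes up most of the variance. The ratio then stays near 1 even where levels differ between nuclei. The median therefore cannot show whether most genes vary. At the same relative spread the ratio is larger in genes with more UMIs, so its order does not rank genes by relative variation. Dpp10 (36.0), Kcnq5 (35.4) and Pde4b (30.1) led with all members, and none of the 3 was among the 12 leading genes without members carrying other markers. There Nrxn3 (21.7), Tenm2 (21.4) and Nrg1 (11.5) led. They encode a neurexin, a teneurin and a neuregulin, 3 adhesion or signalling proteins of synapses. Lrrtm4, a postsynaptic organizer of granule neurons, followed at 9.35, then Sgcz at 9.28.

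Between sets, granule nuclei of set 1 differed in named genes outside the ribosomal group, which were picked after values had been seen. Pcsk1n, the proSAAS gene, had 320.5 CPM in set 1 and 38.6 CPM in sets 2 to 4, 8.31-fold higher, and was 5.11-fold higher in CA1-like nuclei of the same sets. Lhfp was 8.98-fold higher in granule nuclei and 1.43-fold higher in CA1-like nuclei. Pnpla1 had 0.818 CPM in set 1 and 181 CPM in sets 2 to 4, and the predicted gene Gm5624 had 1.64 and 295 CPM. What set 1 is, by sample, preparation or counting, was not tested.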

How the data were processed

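The labels' protocols describe frozen hippocampus, 7AAD sorting, about 5000 nuclei per sample, 10x 3′ chemistry and over 50000 reads per nucleus. The authors deposited unscaled UMI counts, and per the file headers these are integers for each gene in each barcode. Cell Ranger 4.0.0 and the builds mm10 and GRCm38 are named in the submitters' processing notes; the treatment of intronic reads is not given in the sources used here. In all, the matrix holds 24837 genes and 15661 barcodes, and 5612 genes had no UMI.

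Nuclei were classed by marker UMIs as described, and the members and gene lists were chosen with earlier results of these data known. CPM ratios have exact 95% Poisson intervals and shares Clopper-Pearson intervals. A ratio against 0 UMIs uses a floor of 3 UMIs over the class. Oligodendrocyte-like nuclei had at least 3 UMIs from 2 oligodendrocyte markers and 0.5% of UMIs, and thinning to 1000 UMIs left out 565 of them and 5 granule nuclei. Named genes were the 6 rule markers, the 14 highest and 10 lowest genes with at least 500 UMIs and 1 direction in every set (ranked with 1 CPM added), members of lists of 12 or fewer, the 4 highest and 4 lowest ratios of longer lists, and the 12 most variable genes; some that these rules name are not reported here. Any other name was chosen after its values were seen, among them Fos, Pdyn, sparse genes of newborn neurons, the genes of the splits by Trhr and Gsg1l, and those of set 1. Scrublet in scanpy 1.11.5 called 219 barcodes, 42 of them granule nuclei, as doublets; they were kept, and in 4 of the 7 sets it called under 0.5% and is not taken to have worked. Gene overlaps come from GENCODE M21. Analysis used Python 3.11.15, numpy 2.4.6 and pandas 2.3.3, and the ratios were checked on simulated counts.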

Additional observations from a re-analysis of the deposited data

How the results depend on the processing

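The granule share of nuclei, 13.4%, was 10.2% with at least 6 marker UMIs from 4 genes, 17.6% with at least 3 from 2 genes, 14.1% among nuclei with at least 1000 UMIs, 16.2% as the median over barcode sets and 11.5% without members carrying other markers, an alternative added after seeing the data. Leaving out each set in turn gave 12.2 to 15.2%. Genes at least 2-fold higher and lower numbered 451 and 295 over CA1-like and 560 and 245 over CA2/CA3-like nuclei after thinning to 1000 UMIs, 1506 and 975, and 1829 and 1088, with at least 20 UMIs, and 478 and 339, and 531 and 250, with at least 500. These settings test fewer or more genes by construction. Without scaling, 701 genes were higher and 877 lower than in CA1-like, and 751 higher and 1203 lower than in CA2/CA3-like nuclei, so that lower genes outnumbered higher ones. Leaving out each set in turn gave 828 to 932 higher and 558 to 609 lower genes over CA1-like, and 988 to 1100 and 539 to 589 over CA2/CA3-like nuclei. Among ratios at least 2-fold from 1, the direction reversed in log2 ratio for C1ql1 (-2.03 thinned, -0.15 as a mean of scaled counts), Pkp1 (0.97 thinned) and Dsc2 (-1.03 thinned, -0.54 as a mean of scaled counts) over CA1-like nuclei, and for Penk (-0.73 thinned) and Plk3 (0.0035 without set 4, against -2.34 without set 2) over CA2/CA3-like nuclei. It also reversed for Grik1 without members carrying other markers (-0.11 over CA1-like, -0.32 over CA2/CA3-like). Those of C1ql1, Pkp1, Dsc2, Penk and Plk3 rest on under 100 UMIs, and the cause was not tested. Smaller ratios also changed sign: over CA1-like nuclei Pde4b had -3.41 without members carrying other markers, against 0.21 with them, and Egr3 0.56 thinned, against -0.56 before, and over CA2/CA3-like nuclei Nr4a2 had 1.27 thinned, against -0.18 before. In all, thinning moved 102 of 520 gene ratios and list medians by over 1.5 times and changed the sign of 39, leaving out members with other markers moved 62 of 559 and changed the sign of 17, and using no scaling changed the sign of 55 of 559. The median of the immediate early genes over CA1-like nuclei became 0.44 after thinning, when 2 of the 20 genes still had 100 UMIs, against 14 before. The median over sets could not be had for the dorsal and ventral genes over CA2/CA3-like nuclei. Depth limits genes under 100 UMIs, and with no map from sets to samples nothing here measures variation between animals. No paired analysis was possible because the labels tie no barcode set to a sample and there is 1 group.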
